A study of Danio rerio with 6 samples.

Results

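Eomesodermin homologue A (Eomesa) is a T-box transcription factor that zebrafish embryos inherit from the egg, and it acts with the Nodal pathway when mesoderm and endoderm are specified. Nodal ligands activate Smad2, which enters the nucleus and is brought to DNA by partner proteins such as Foxh1 and Eomesa. In a ChIP-seq experiment each binding region is deposited as an interval. Its width can depend on the tags stacked there, on the peak caller and on how the peaks of repeat experiments were combined.

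The 746 narrow Eomesa intervals described here are those with a deposited width of 1 to 99 bp, out of 6378 Eomesa intervals in all. They were chosen by width alone, a value that comes from the Eomesa tags and their input, and the Eomesa and input values below are therefore a description of the chosen regions and support nothing further. They made up 11.7% of the list (95% Wilson interval 10.9 to 12.5%). Counting all Eomesa intervals that lay within 1 kb of each other as 1 region lowered this share to 7.70%. A further 12 intervals had a width of 0 bp, with the same start and end, and were not members.

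Chromatin came from AB zebrafish embryos fixed at the high to sphere stages, when the embryo is a blastula and transcription of its own genome has begun. The study holds 6 libraries, with 2 reactions per group. The groups are Smad2, Eomesa and input, where input is chromatin that went through no antibody step. The labels give no mutant allele or treatment for any group, and whole embryos were used, so a weak signal in all cells and a strong signal in a few cells cannot be told apart. Each group is represented by 1 track and the interval lists merge both reactions, so no replicate error could be given and no test between groups was possible. The intervals printed below cover the sampling of sites and counting only, not variation between embryos.

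The tracks hold the number of tags stacked at each position. They carried an estimated 12.3 M tags (M, a mega count of tags) for Eomesa, 12.6 M for Smad2 and 19.0 M for input, with each tag covering 38.9 bp in the Eomesa track and 132 bp in the other tracks. Signal is given as a multiple of the mean of its own track over the 500 bp centred on an interval, and height as the highest number of stacked tags within an interval. Tag numbers given below for an interval, as opposed to a window, are such heights and not counts of all its tags. Heights are comparable within a track and not between tracks, since longer tags stack higher and the tracks hold different numbers of tags. Around a narrow interval the 500 bp window held a median of 38.9 Eomesa tags, 10.3 Smad2 tags and 11.4 input tags, so single intervals are measured with low precision in the Smad2 and input tracks.

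Foxh1 sites are shown first because they are the DNA sequences in which the narrow intervals can be read at the level of bases. The study predicted these sites from a binding matrix, and its listing was held here for a part of the Eomesa list only. In that part, 9 of 206 narrow intervals carried a listed site (4.37%), against 492 of all 1998 Eomesa intervals (24.6%). Per kb of interval the rates were 0.796 and 0.83 intervals with a site. Capitals mark the letters AATNNAC, searched on the strand as listed, which 379 of the 492 listed sites held (77%) and which 6 of the 9 sites in narrow intervals held. The 3 tallest narrow intervals with a site and the neighbour of the tallest are shown, 5′ to 3′, with the interval on Zv9 as deposited.
Eomesa_peak250, chr1:54381262-54381323: tggAATAAACt
Eomesa_peak249, chr1:54381133-54381223: tgtAATTCACa
Eomesa_peak479, chr10:44973009-44973069: accAATCCACt
Eomesa_peak478, chr10:44930891-44930951: accAATCCACt

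Eomesa_peak250 and Eomesa_peak249 lay 39 bp apart on chromosome 1, with heights of 11 and 5 Eomesa tags. The sites of Eomesa_peak478 and Eomesa_peak479 had the same letters, and these intervals had the same width and heights, as described further down. A match to these letters describes the sequence and is not evidence that Foxh1 was bound.

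The Eomesa signal around narrow intervals was low for the list but far above the track mean. Its median was 8.91 times the mean (95% interval of the median 8.70 to 9.32), and it ranged from 3.44 to 75.4. For comparison, the median was 9.45 (9.20 to 9.70) around intervals of 100 to 200 bp (200 bp itself excluded, here and below), 15.7 around those of 200 to 399 bp and 34.9 around those of 400 bp or more. Below a width of 200 bp the signal in the 500 bp window therefore changed little with width, and the medians were 8.70 for intervals of 1 to 49 bp and 9.25 for those of 50 to 99 bp. Within the interval itself the medians rose with width, from 7.02 at 1 to 49 bp to 13.5 at 50 to 99 bp and 15.1 at 100 to 200 bp. The window also takes in tags of neighbouring intervals. Narrow intervals with no wider one within 1 kb had a median of 7.82 (7.53 to 8.20) in the window. Input signal was also above its own mean at narrow intervals, with a median of 1.70 (1.61 to 1.77), against 1.61 (1.54 to 1.66) at 100 to 200 bp and 2.08 at all intervals of 100 bp or more. The median ratio of Eomesa to input was 5.50 (5.15 to 5.91) at narrow intervals and 6.18 (5.92 to 6.48) at 100 to 200 bp. In 731 of the 746 narrow intervals this ratio was at least 2, a share of 98%, where 99.2% of all Eomesa intervals reached it.

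**Figure D1:**
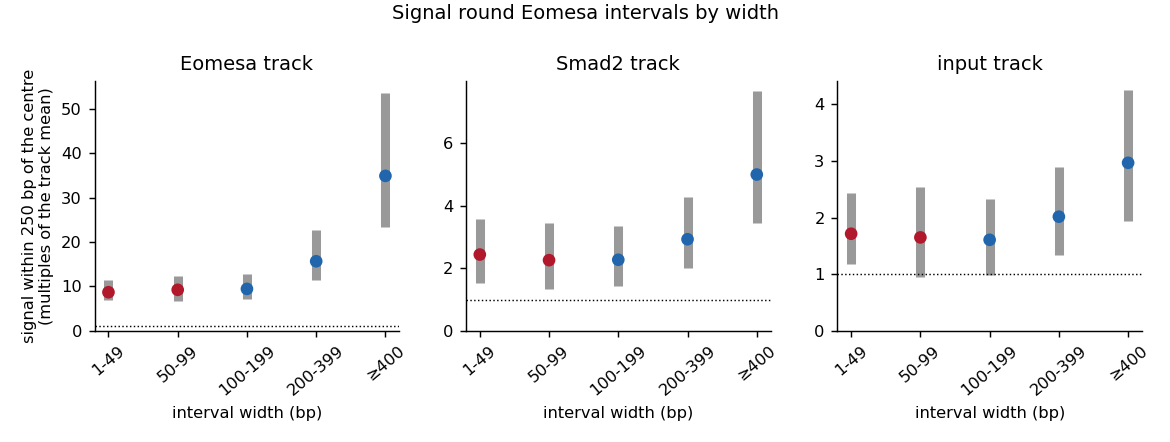
Signal within 250 bp of the centre of Eomesa intervals in 5 width classes, as multiples of the track mean, in the Eomesa, Smad2 and input tracks. Points are medians, red for the narrow classes and blue for the wider ones, grey bars run from the lower to the upper quartile and the dotted line is the track mean; the Eomesa medians stay between 8.70 and 9.45 below 200 bp and reach 34.9 at 400 bp or more.

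The tags within the narrow intervals themselves were few. Their median height was 6 Eomesa tags (quartiles 4 and 9), while the highest position within 250 bp of the centre had a median of 10 tags (quartiles 8 and 16). At intervals of 100 to 200 bp the corresponding medians were 10 and 11 tags. No Eomesa tag at all lay in 3 narrow intervals and the height was at most 1 tag in 32, of which 31 were narrower than 50 bp. These are 0.402% and 4.29% of the narrow intervals, where 0.0627% and 0.659% of all Eomesa intervals were as low. Height followed width among the 746 intervals (Spearman correlation 0.66, given as a description), whereas the signal in the 500 bp window did not (0.01); a wider interval has more positions at which a high value can fall.

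Most narrow intervals did not hold the local maximum of the Eomesa track. Only 206 of 746 (27.6%, 24.5 to 30.9%) contained the highest Eomesa position within 250 bp of their centre, against 82.3% of all Eomesa intervals and 71.8% (69.4 to 74.1%) of those of 100 to 200 bp. The share rose with width, from 2.4% of intervals of 1 to 24 bp and 7.88% of those of 25 to 49 bp to 33.8% at 50 to 74 bp and 49.8% at 75 to 99 bp. The step from 75 to 99 bp to 100 to 124 bp, where it was 51.6%, was within the intervals of both shares. A narrow interval has less room for a maximum, since its median width of 59 bp is 11.8% of the window searched. In a window of 100 bp on each side the share was 46.4%. In the 540 intervals without the local maximum, that maximum lay a median of 115 bp from the nearer edge (quartiles 65 and 165 bp), at a lower coordinate in 263 and at a higher one in 277. The tallest position inside those intervals had a median of 44.4% of the local maximum.

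**Figure D2:**
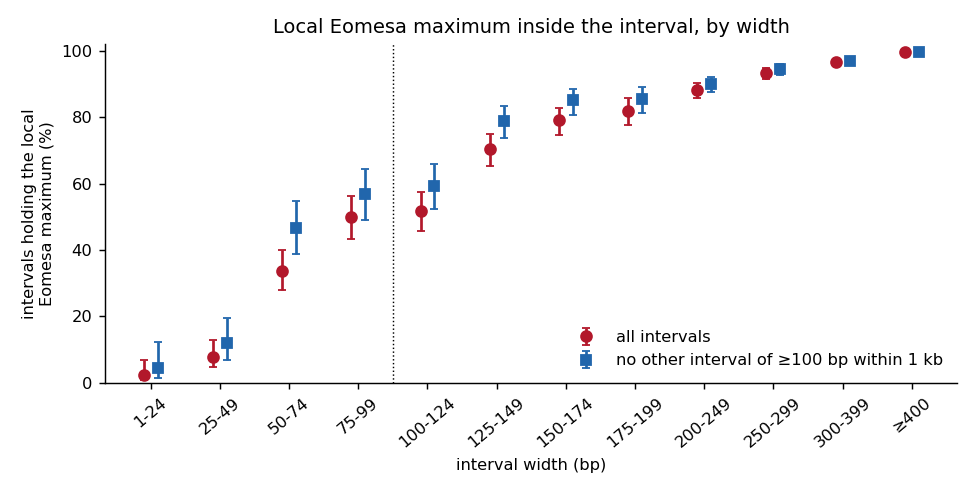
Percentage of Eomesa intervals, by width in bp, that hold the highest Eomesa position within 250 bp of their centre, for all intervals (red circles) and for those with no other Eomesa interval of at least 100 bp within 1 kb (blue squares). Bars are 95% Wilson intervals and the dotted line separates narrow from wider intervals; the share climbs from 2.4% at 1 to 24 bp to 99.7% at 400 bp or more.

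Narrow intervals fell into those beside a wider Eomesa interval and those away from any. An interval of at least 100 bp lay within 1 kb, edge to edge, of 269 of the 746 (36.1%, 32.7 to 39.6%), where 15.4% of all Eomesa intervals had another such interval as near. At 100 to 200 bp the share was 20.3%, which is 15.8 percentage points lower than for narrow intervals (95% Newcombe interval 11.7 to 19.8 points). The gap was mostly very short. It was below 25 bp at 79 narrow intervals, and its median among the 269 was 52 bp (quartiles 18 and 122 bp). By contrast, 58 narrow intervals had a gap between 1 and 10 kb, 408 had a longer one, and 11 lay on sequences without any interval of at least 100 bp. Within 10 kb, 43.8% of narrow intervals had a wider neighbour, against 31.2% of all intervals. The median gap over the 735 intervals with a value was 20081 bp (14033 to 32103 bp), a value that mixes both groups of distances. Among narrow intervals with no wider one within 1 kb the median gap was 79725 bp (68873 to 95545 bp). Over narrow intervals as a whole it was 57500 bp when only intervals of 200 bp or more counted as wider.

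**Figure D3:**
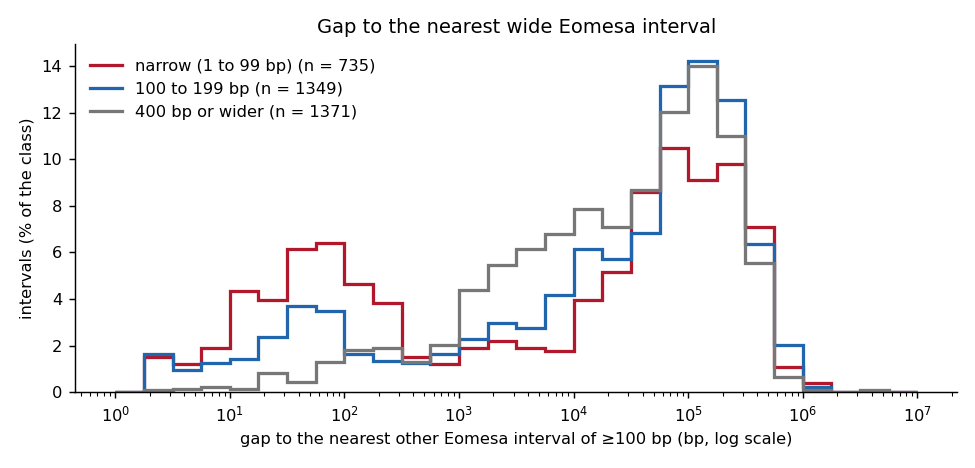
Distribution of the gap in bp (log axis) from each Eomesa interval to the nearest other Eomesa interval of at least 100 bp, as a percentage of the class, for narrow intervals (red), intervals of 100 to 200 bp (blue) and those of 400 bp or more (grey). Narrow intervals show a group of short gaps, with 36.1% within 1 kb, and a group of gaps above 10 kb.

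The 269 intervals beside a wider one were the lower of the pair in most cases. The neighbour was taller in 238, of equal height in 4 and lower in 27, and the median heights were 14 tags for the wider neighbour and 5 tags for the narrow interval. The neighbours had a median width of 234 bp, against 290 bp for all intervals of at least 100 bp. In 170 of the 269 the local Eomesa maximum within 250 bp of the narrow centre lay in the wider neighbour, in 31 it lay in the narrow interval, and in 73 in neither; in a few it was reached at tied positions in both. Between the 2 intervals the Eomesa track fell to 0 in 167 of the 269. Each tag covers only 38.9 bp in that track, so a value of 0 does not by itself show 2 separate binding regions. The wider neighbour was on the side of the higher coordinates in 135 and of the lower ones in 134.

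Averaged over these 269 intervals and turned so that the neighbour lies to the right, the Eomesa signal was 14.6 times the track mean at the centre of the narrow interval, dropped to 6.09 at 37.5 bp and rose to 22.7 at 187.5 bp. Smad2 and input signal also had their highest means on the side of the neighbour, at 212.5 bp, with 4.50 and 2.45 times their own track means. The 477 intervals without a wider neighbour had their highest mean Eomesa signal, 17.9, at 12.5 bp from the centre. It had fallen to 7.55 at 187.5 bp, where intervals of 100 to 200 bp had 7.4. The mean Smad2 and input signal of the 477 were highest at 12.5 bp from the centre, with 3.02 and 2.34. Among these 477, 175 (36.7%) held the local Eomesa maximum, against 31 of the 269 with a neighbour (11.5%), and their median Eomesa signal was 7.82 (7.53 to 8.20) against 10.8 (10.3 to 11.7) beside a wider interval, whose tags also fall in the window.

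**Figure D4:**
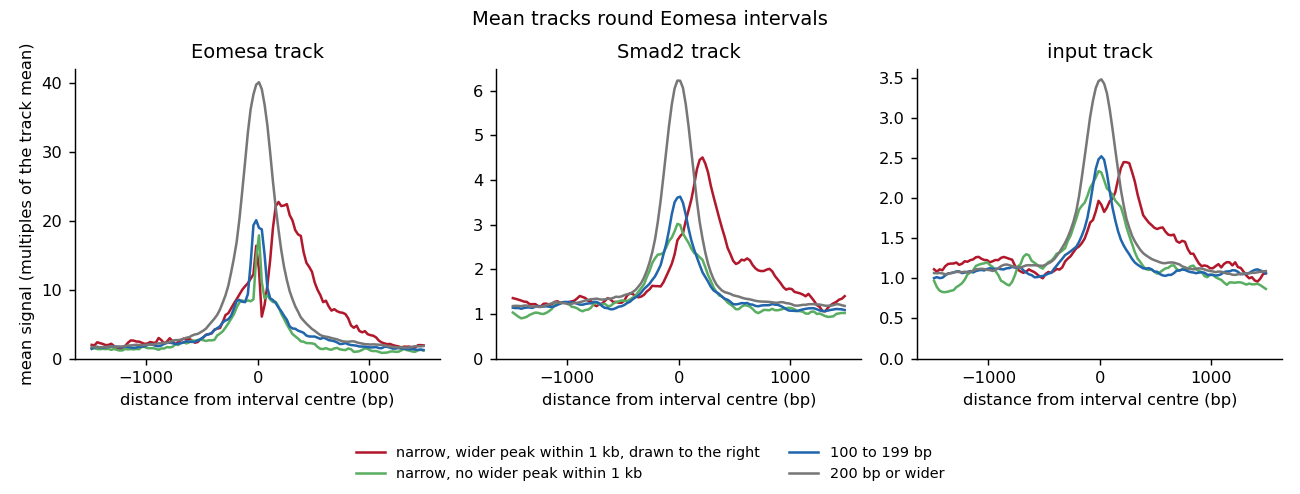
Mean Eomesa, Smad2 and input signal, as multiples of the track mean in steps of 25 bp, against the distance in bp from the interval centre for narrow intervals beside a wider one (red, turned so that the neighbour lies to the right), narrow intervals without one (green), intervals of 100 to 200 bp (blue) and of 200 bp or more (grey). The red Eomesa curve dips to 6.09 next to the narrow interval before it rises to 22.7 over the neighbour.

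Smad2, the effector of Nodal signalling, was measured with another antibody and did not enter the choice of the intervals. Its median signal was 2.32 times the track mean (2.19 to 2.47) at narrow intervals, 2.27 (2.19 to 2.35) at 100 to 200 bp and 3.14 (3.07 to 3.21) at all intervals of 100 bp or more. Relative to input the median was 1.33 (1.23 to 1.41) at narrow intervals and 1.39 (1.33 to 1.47) at 100 to 200 bp. This ratio was at least 2 in 205 narrow intervals (27.5%, 24.4 to 30.8%), against 32.3% of all Eomesa intervals, and below 1 in 224 (30%), against 25.9% of all Eomesa intervals. For the share with a ratio of at least 2, the difference from intervals of 100 to 200 bp was -0.904 percentage points (95% Newcombe interval -4.84 to 3.14 points). For the share below 1 it was 1.13 points (-2.88 to 5.25 points). Both intervals run from negative to positive values and cover only the sampling of sites and counting, so they are a description. Input entered the choice of the intervals, so a ratio to input is not free of that choice. Beside a wider neighbour the median ratio in the window was 1.50 (1.36 to 1.66), and without one it was 1.21 (1.15 to 1.33). That window also takes in tags of the neighbour. Within the interval itself the median Smad2 signal was 1.90 (1.70 to 2.46) beside a neighbour and 2.55 (2.38 to 2.71) without one. The median input signal there was 1.31 (1.13 to 1.69) and 1.85 (1.65 to 2.04). Over the 746 intervals the Spearman correlation of Smad2 signal was 0.55 with input signal and 0.29 with Eomesa signal. That of Eomesa with input signal was 0.32. The intervals were called on Eomesa against input, so these correlations are a description and are not ranked. All of them share the same windows, in which few tags were counted.

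A called Smad2 peak shared at least 1 bp with 8 narrow intervals, or 1.07% (0.544 to 2.10%), where 5.63% of all Eomesa intervals shared one. Of the intervals of 100 to 200 bp, 28 did so (2.04%), and the difference of -0.965 points had an interval from -2.00 to 0.238 points. The chance to share a base grows with width, so the centres were compared as well: a Smad2 centre lay within 250 bp of the centre of 11 narrow intervals (1.47%), against 5.55% of all Eomesa intervals. At 100 to 200 bp the share was 1.97%, and the difference of -0.491 points had an interval from -1.58 to 0.809 points. In both measures the interval of the difference runs from negative to positive values and covers only the sampling of sites and counting. At the 8 shared places Smad2 signal ran from 3.68 to 13.5 and was 2.43 to 5.99 times that of input, while the Eomesa signal ran from 5.70 to 16.4. The Smad2 peaks were themselves called against input, so the Smad2 and input values at these 8 places are a description only. None of the 8 held the local Eomesa maximum, where 27.6% of all narrow intervals did. Of the 8, 6 were narrower than 50 bp, a class in which only 5.52% held it, so this count shows no trait of the shared intervals.

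The interval beside wnt8a stood out among them by its gene, which encodes a Wnt ligand that patterns ventral and lateral mesoderm. Eomesa_peak1348 (chr14:35620364-35620380) was 16 bp wide and lay whole within a Smad2 peak of 192 bp. Its height was 6 Eomesa, 13 Smad2 and 5 input tags, and within 250 bp its Smad2 signal was 7.08 and its input signal 1.64. Its Eomesa signal of 10.6 was above the narrow median, and an Eomesa interval of 298 bp with a height of 16 tags lay 651 bp away. The study's annotation names wnt8a and TMSB10, an actin-binding thymosin, beside it. Of the 27 mesendoderm genes looked for, such as ndr1, gsc and sox32, 10 were named beside any Eomesa interval in the part of the annotation that was held, and wnt8a was the 1 gene among them beside a narrow interval. Of 16 ectoderm genes looked for, 6 were named beside any interval and 0 beside a narrow one. Counted as intervals, 0.485% of the narrow ones held lay beside a gene of the mesendoderm list and 0% beside one of the ectoderm list, where the shares over all intervals held were 1% and 0.651%, so these counts are too small to show a difference.

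Eomesa_peak3673 (chr23:29719815-29719901) had the greatest Eomesa height of the 8. It held 10 Eomesa, 16 Smad2 and 5 input tags and shared 49 of its 86 bp with a Smad2 peak of 314 bp. The study's annotation names kif1b, a kinesin motor gene, beside that Smad2 peak. Genes are also named at the shared places of Eomesa_peak5242 (SRGAP3) and Eomesa_peak4086 (several, such as zgc:154164). Eomesa_peak1413 (chr15:311335-311377) had the highest Smad2 signal of all narrow intervals, 13.5, with an input signal of 5.56. It lay 13 bp from an Eomesa interval of 576 bp and inside a Smad2 peak of 999 bp. Eomesa_peak5242 (chr6:41493624-41493626) was only 2 bp wide, held 1 Eomesa tag and 12 Smad2 tags, and had the highest ratio of Smad2 to input of the 8, 5.99.

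The remaining shared intervals also had more Smad2 than input signal in their windows, each relative to its own track mean, which goes with their choice by a called Smad2 peak. Eomesa_peak4086 (chr25:36173211-36173250) lay whole within a Smad2 peak of 136 bp, with centres 1.5 bp apart, and held 3 Eomesa and 5 Smad2 tags. Eomesa_peak1491 (chr15:16996162-16996176) shared 5 bp and held 4 Eomesa and 7 Smad2 tags. Eomesa_peak677 (chr11:33234686-33234772) and Eomesa_peak3807 (chr24:15489201-15489235) touched a Smad2 peak by 11 and 4 bp and held 3 Smad2 tags each, with 4 and 2 input tags. A Foxh1 site was listed in the Smad2 peaks at 4 of the 8 places, where 41.8% of all 898 Smad2 peaks had one. Each site belongs to the Smad2 peak as a whole. Its position in the peak was not read, so it need not lie in the bases shared with the narrow interval. The sites are given with the Smad2 peak on Zv9 and capitals as above.
Smad2_peak95 at Eomesa_peak677, chr11:33234398-33234697: cacAATACACa
Smad2_peak209 at Eomesa_peak1413, chr15:310417-311416: tgcAATAAACa
Smad2_peak500 at Eomesa_peak3673, chr23:29719852-29720166: cccAATCCACa
Smad2_peak530 at Eomesa_peak3807, chr24:15488756-15489205: ctgAATAAACt

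Next to a called Smad2 peak, at a gap of 14 bp, Eomesa_peak6093 (chr9:32317827-32317834) had a Smad2 signal of 12.0 against an input signal of 1.46 in its window. It was 7 bp wide, held 2 Eomesa tags and lay 10 bp from an Eomesa interval of 225 bp whose height was 18 tags. The second highest Smad2 signal, also 12.0, was at Eomesa_peak6247 on an unplaced sequence (Zv9_NA343), where input signal was higher still, at 13 times its mean. That interval and Eomesa_peak6246 on the same sequence were 79 bp wide each, held 48 and 40 input tags, and had Eomesa to input ratios of 1.31 and 1.20, among the lowest of the narrow intervals.

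The tallest narrow intervals had Eomesa heights above the upper quartile of the whole list, which was 22 tags. Eomesa_peak5032 (chr5:75613221-75613306), 85 bp wide, reached 57 Eomesa, 11 Smad2 and 27 input tags. It lay in a stretch of high Eomesa signal, 75.4 times the mean in its window with a local maximum of 73 tags outside the interval, and an interval of 117 bp lay 80 bp away. Its input signal, 11.6, was the third highest among narrow intervals and its Smad2 to input ratio was 0.517. The highest value that the Eomesa track takes anywhere is 78. In all, 49 narrow intervals (6.57%) had at least 20 Eomesa tags, where 31.8% of all Eomesa intervals did. Of the 49, 41 held the local maximum (83.7%), against 97.2% of all intervals of that height. Only 1 of the 49 was narrower than 50 bp, 13 had a wider neighbour within 1 kb and 8 were on chromosome 4. Over all 746 narrow intervals these counts were 290, 269 (36.1%) and 52 (6.97%).

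At the other end, the 3 intervals without an Eomesa tag were Eomesa_peak4881 (chr5:40429999-40430003), Eomesa_peak2460 (chr19:26494727-26494728) and Eomesa_peak487 (chr10:46297764-46297765), which were 4, 1 and 1 bp wide. Local maxima of 9, 6 and 6 Eomesa tags lay within 250 bp of them. The tallest of the 1 bp intervals were Eomesa_peak5357 (chr7:16966736-16966737) with 2 tags, and Eomesa_peak2354 (chr19:6803304-6803305) and Eomesa_peak4464 (chr4:3732919-3732920) with 1 tag each. Eomesa_peak4464 lay 43 bp from an interval of 179 bp with 18 tags, in a window where Eomesa was 47.0 times input. That ratio rests on an input signal of only 0.332, with at most 2 input tags stacked in the window.

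The tallest intervals on both sides of the width limit were as follows. Just inside it, at 99 bp, Eomesa_peak2902 (chr20:12139476-12139575) reached 43 Eomesa tags, with 2 Smad2 and 0 input tags, and Eomesa_peak1432 (chr15:1723553-1723652) and Eomesa_peak3513 (chr22:39221398-39221497) reached 21 and 20 Eomesa tags. Just outside it, at 100 bp, Eomesa_peak1082 (chr13:31920505-31920605), Eomesa_peak2978 (chr20:28120811-28120911) and Eomesa_peak6155 (chr9:45435297-45435397) reached 17, 17 and 15. These are picked extremes at single widths and do not show a drop in height at the limit. The median height was 8 tags at 50 to 99 bp and 10 tags at 100 to 200 bp.

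The intervals closest to a wider one were separated from it by 2 bp. Eomesa_peak1951 (chr17:20021893-20021951) held 8 tags beside an interval of 201 bp with 13, Eomesa_peak2369 (chr19:10087789-10087827) held 6 beside one of 233 bp with 7, and Eomesa_peak1267 (chr14:19661813-19661823) held 4 beside one of 572 bp with 29. The study's annotation places the last of these by dusp1, which encodes a phosphatase of MAP kinases. The narrow intervals furthest from a wider one were Eomesa_peak5315 (chr7:15799-15896) with 17 Eomesa tags, Eomesa_peak3486 (chr22:29170515-29170585) with 17, and Eomesa_peak4039 (chr25:26435086-26435180) with 7, the first of them near the start of its chromosome. At Eomesa_peak3486 Eomesa was 43.5 times input. There the Eomesa signal was 6.61 and the input signal only 0.152, with at most 1 input tag stacked in the window.

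Narrow intervals took a larger share of the Eomesa list on chromosome 4 than elsewhere. They were 52 of 260 intervals there, or 20% (15.6 to 25.3%), and between 6.99% on chromosome 16 and 14.4% on chromosome 21 on the other chromosomes. The difference between chromosome 4 and the rest of the list was 8.66 points (4.17 to 14 points); chromosome 4 was singled out after the shares were seen, as the highest of 25. The share was higher beyond 25 Mb, a boundary also set after the values were seen, where 34 of 121 intervals were narrow (28.1%, 20.9 to 36.7%), against 18 of 139 before it (12.9%, 8.35 to 19.5%). The 34 intervals beyond 25 Mb had a median width of 78 bp and a median height of 15.5 tags, against 14 over all Eomesa intervals. The local maximum was held by 23 of the 34 (67.6%), against 27.6% of all narrow intervals. It was held by 82.3% of all Eomesa intervals and 91.8% of the wider ones on chromosome 4. The median Smad2 to input ratio of the 34 was 1.26 (0.936 to 1.96). None of the 52 on chromosome 4 shared a base with a Smad2 peak (upper Wilson limit 6.88%), where 1.07% of all narrow intervals and 3.38% of the wider intervals on chromosome 4 did.

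**Figure D5:**
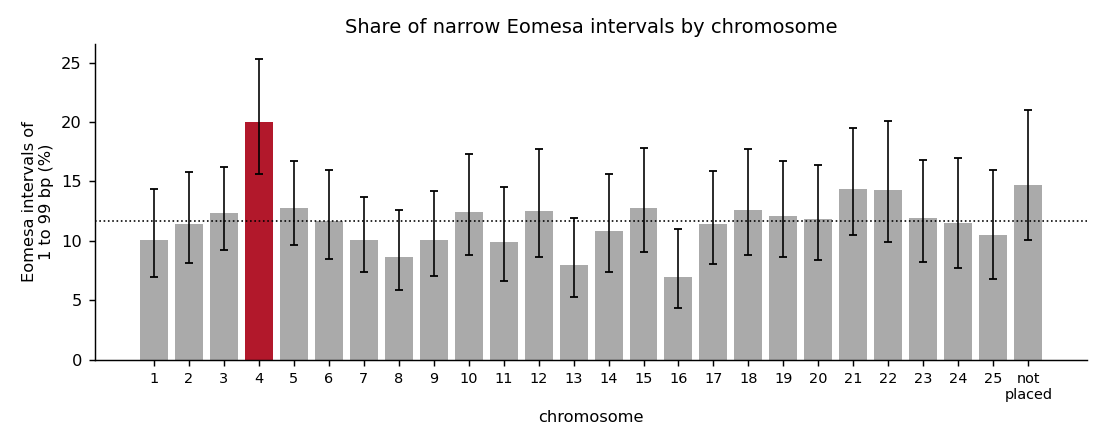
Percentage of Eomesa intervals that are 1 to 99 bp wide on each of 25 chromosomes and on unplaced sequences, with 95% Wilson intervals. The dotted line is the share in the whole list, 11.7%, and the red bar is chromosome 4, at 20%.

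Part of these intervals formed a group on chromosome 4. Within 16.2 kb there lay 11 Eomesa intervals, of which 7 were narrow, with heights from 17 to 57 tags. Eomesa_peak4598 (chr4:28006085-28006163) and Eomesa_peak4600 (chr4:28011977-28012055) were both 78 bp wide and both held 57 Eomesa, 40 Smad2 and 26 input tags. They lay 5892 bp apart, and each had at 221 bp a wider interval of 173 bp with 38 Eomesa tags. Those wider intervals, Eomesa_peak4597 and Eomesa_peak4599, were also 5892 bp apart and held the same 45 Smad2 and 40 input tags. Eomesa_peak4594 (chr4:28003169-28003236) and Eomesa_peak4602 (chr4:28014909-28014976) were both 67 bp wide with 17 Eomesa, 12 Smad2 and 7 input tags. Their local Eomesa maxima differed, at 18 and 29 tags, so they were not counted as a repeated pair below. Other members of the group differed in their heights, such as Eomesa_peak4595 (chr4:28003772-28003852), with 45 Eomesa, 5 Smad2 and 13 input tags.

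Loci that repeat one another as Eomesa_peak4598 and Eomesa_peak4600 do were then counted in the whole list. An interval was counted when another Eomesa interval at least 1 kb away had the same width, the same local Eomesa maximum and a correlation of at least 0.9 in each of the 3 tracks over the 500 bp window, read forwards or mirrored and shifted by at most 10 bp. This held for 36 narrow intervals (4.83%, 3.51 to 6.61%), against 2.21% of all Eomesa intervals and 24 of 1374 at 100 to 200 bp (1.75%, 1.18 to 2.59%). The difference from the latter was 3.08 points (1.51 to 4.95 points). The 36 formed 18 pairs, 11 on a single sequence and 7 on different sequences. In 14 pairs all 3 heights were the same.

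Eomesa_peak478 and Eomesa_peak479, with the same Foxh1 site, were such a pair. They were 60 bp wide each, held 9 Eomesa, 4 Smad2 and 5 input tags and lay 42118 bp apart on chromosome 10. Eomesa_peak3514 (chr22:39894382-39894450) and Eomesa_peak5318 (chr7:6668552-6668620) on different chromosomes both held 27 Eomesa, 2 Smad2 and 8 input tags, with a correlation of 0.997. Eomesa_peak537 (chr11:9164061-9164120) and Eomesa_peak3809 (chr24:16520353-16520412) both held 23, 4 and 1. The authors kept reads that mapped to more than a single place, and the part of such reads in these pairs was not tested. Leaving out all 36 intervals moved no result by more than its interval.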

How the data were processed

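ChIP-seq libraries from zebrafish blastulas (2 reactions each for Smad2, Eomesa and input) were grouped by their titles. The authors mapped reads to Zv9 with Bowtie, allowing a read at most 2 genomic positions, and called peaks with MACS against input, keeping regions found in both reactions. The authors deposited 1 list of intervals for each factor, with the width as its only other value, and 1 signal track (coverage by shifted tags every 5 bp, not scaled to depth) for each group. Whether interval ends are those shared by both reactions is not given in the sources used here. No deposited column belonged to other samples.

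Intervals of 1 to 99 bp were measured with Python 3.11.15, numpy 2.4.6, pandas 2.3.3, scipy 1.17.1 and numba 0.67.0, within the interval and within 250 bp of its centre. Medians carry 95% order-statistic intervals, shares Wilson intervals and differences of shares Newcombe intervals. No significance test was run, since each group has 1 track. Ratios with an input of 0, at 2 narrow intervals, ranked highest or were left out if Smad2 was 0 too. Computation was tested on simulated data. Named intervals are the extremes (3 each) of height, Smad2, input, width and gap, those just outside the limit, those sharing a base with Smad2, those with a Foxh1 site or a listed gene; others were named after their values were seen. Members and lists were chosen with earlier results of these data known. Alternatives covered width limit, window, scaling, gap and overlap.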

Additional observations from a re-analysis of the deposited data

How the results depend on the processing

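The 12 results were recomputed under alternative settings, each run on the results it concerned, which gave 105 values. Of these values, 74 lay inside the 95% interval of the reported one and 31 outside it. With a width limit of 49 bp, the Eomesa to input ratio was 5.14, the share with a wider interval within 1 kb 43.5%, within 10 kb 52.8%, the median gap 3358 bp and the share with the local maximum 5.52%. With a limit just under 150 bp the last 4 were 25%, 33.4%, 47000 bp and 43.5%. Counting intervals within 1 kb as 1 gave 440 narrow regions of 5715, or 7.70%. Within 100 bp of the centre the Eomesa signal was 9.48, its ratio to input 5.94 and the share with the local maximum 46.4%. Within 500 bp of the centre the Eomesa, Smad2 and input signals were 6.39, 1.94 and 1.48, and the Eomesa ratio 4.76. Within the interval itself the Eomesa signal was 10.7 and its ratio 7.05. Scaled to covered bases, the 3 signals were 1.38, 1.18 and 0.930 and the Eomesa ratio 1.56, since the Eomesa track covers 15.5% of the genome and the input track 54.8%. Without intervals that had a wider neighbour within 1 kb, the Eomesa signal was 7.82 and the Eomesa and Smad2 ratios 4.66 and 1.21. The Smad2 overlap was 2.68% with the interval widened to 250 bp on each side of its centre, and 2.82% had a Smad2 centre within 500 bp. With wider intervals of 200 bp or more, 22.5% had one within 1 kb and 30.0% within 10 kb, at a median gap of 57500 bp. Alternatives without the repeated loci, without chromosome 4 or with widths of 0 bp, chosen after seeing the data, gave values inside the interval for every result they were run on. No paired analysis was possible because the interval lists and tracks merge the reactions and carry no replicate numbers, and for the same reason no replicate could be left out. Few tags were counted at single intervals, with a median of 10.3 Smad2 and 11.4 input tags in the window.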

Other observations

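Among narrow intervals outside the naming rule, Eomesa_peak2914 (chr20:16496258-16496348) reached 47 Eomesa tags with 3 Smad2 and 4 input tags, and Eomesa_peak2913 (chr20:16496085-16496145), also narrow, lay beside it with 11, 0 and 0. Both were chosen after their values were seen. The nearest interval of at least 100 bp was 21581 bp from Eomesa_peak2914.

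Eomesa_peak841 (chr12:30782942-30783035), also chosen afterwards, held 9 Eomesa, 7 Smad2 and 4 input tags and was the taller of a pair, with an interval of 157 bp and 4 tags lying 3 bp away. The study's annotation places it beside mxtx2, a homeobox gene that acts in the yolk syncytial layer and in endoderm induction in zebrafish.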
